A study of Hydra viridissima with 2 samples.

Results

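The genes described here are the abundant long genes of green hydra: gene models with a coding length from 3000 nt to under 10000 nt, at least 2 exons, a mean of at least 300 CPM (a gene's share of all counted read pairs, scaled to a common library size) over the 2 libraries, and less than a 2-fold difference between them. Of 34573 gene models, 155 met this rule. Coding length alone held 2020 models, at least 2 exons left 1512 of these, and the level of 300 CPM left 155. The limit on the ratio then removed 0 genes. Level and ratio chose the members, so both are given below as descriptions, with no test. The other properties (exon number, gene span, introns, exon series, position) were not used beyond the limit of 2 exons.

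The study profiled whole polyps of Hydra viridissima clone 2 by total RNA sequencing after enzymatic removal of ribosomal RNA. Of its 2 libraries, 1 came from aposymbiotic clone 2 polyps, which lack the green algae, and 1 from green (symbiotic) clone 2 polyps, which carry them in the cells lining the gut. Each library was made from about 200 large animals pooled, kept at 24 °C, fed brine shrimp and collected 2 to 3 days after the last feeding. The labels used here do not say how the algae were removed. The aposymbiotic library held 5533508 counted read pairs and the symbiotic library 6905650.

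With 1 library per condition there is no replicate check and no p-value. Each difference is one between these libraries, and each interval is an exact 95% counting interval. In whole polyps, fewer cells of a type and less RNA per cell cannot be told apart.

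Reads that come from a transcript are spread along its length, so at equal numbers of molecules a long transcript collects more read pairs than a short one. In animals, genes with long coding sequences and high transcript levels commonly encode large structural, motor or extracellular proteins, many of them built from repeated domains. An exon whose length is a multiple of 3 can be added or repeated without shifting the reading frame, and runs of such exons are a known mark of repeated domains. The deposited table pairs none of the identifiers with a gene name, so no role is assigned to any gene here and genes are given by position.

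The 155 genes took 589091 read pairs, 10.6% of the aposymbiotic total (10.6 to 10.7, Clopper-Pearson), and 766016 read pairs, 11.1% of the symbiotic total (11.1 to 11.1). They were 28.4% of the 545 models of any structure with a mean of at least 300 CPM. Summed over the genes, the log2 ratio of symbiotic over aposymbiotic was 0.09 (0.08 to 0.09). The counts were unevenly spread among them. The largest gene held 9.99% of the group's aposymbiotic and 10.6% of its symbiotic counts, the 10 largest held 28.8% and 30.8%, and the 50 largest held 60.7% and 62.0%. Counts per gene ran from 1402 to 58852, with a median of 2515, in the aposymbiotic library. In the symbiotic library they ran from 1864 to 80946, with a median of 3147.

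The order of the genes was much the same in both libraries. Across the 155 genes, Spearman's rho between the CPM of the 2 libraries was 0.947 and Pearson's r of log2 CPM was 0.981, where genes are not independent replicates and the level limit was set on the same values. The log2 ratio of CPM, symbiotic over aposymbiotic, had a median of 0.05 (95% order-statistic interval over genes -0.0045 to 0.08) and ran from -0.49 to 0.55. The median over all 16162 tested models (mean of at least 1 CPM) was 0.01. Over the 1250 other multi-exon models of the same length range with a mean of at least 10 CPM it was 0.06 (0.04 to 0.07), and its interval lies within that of the 155. Of the 155 genes, the log2 ratio was under 0.1 in size for 70 and under 0.5 for 152.

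**Figure D1:**
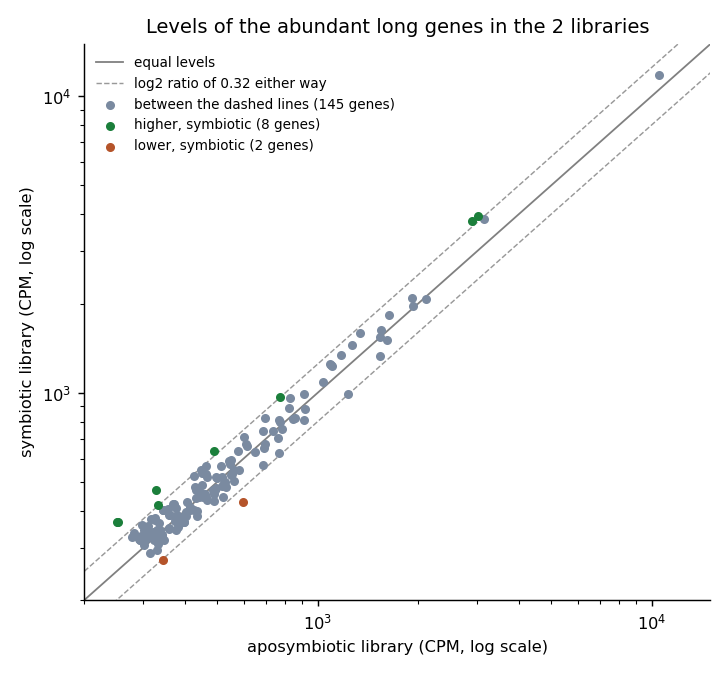
Level of each of the 155 genes in the aposymbiotic library (x axis) and the symbiotic library (y axis), both in CPM on log scales; the solid line marks equal levels and the dashed lines a log2 ratio of 0.32 either way. Of the 155 points, 8 lie above the upper dashed line, 2 lie below the lower one and the other 145 lie between them; the largest gene stands alone at the upper right.

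The size set for calling a difference was a log2 ratio of 0.32, and the counting interval also had to exclude equality. With both conditions met, 8 of the 155 genes (5.16%) were higher in the symbiotic library, beside 5.74% of all tested models. In the other direction 2 of the 155 (1.29%) were lower, beside 4.96% of all tested models. Among the 1250 other long models, 9.52% were higher and 3.6% lower. The rule for members limits this same ratio, so nothing is read from these shares. At a size of 1.5-fold, 0 of the 155 genes were called in either direction, beside 2.3% higher and 2.78% lower of all tested models. At 1.1-fold, 45 were higher and 13 lower, beside 9.94% and 7.24%.

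Most of the ratios were small, and their spread was nevertheless wider than counting error. The counting interval excluded equality for 102 of the 155 genes (65.8%), beside 18.4% of all tested models and 35.4% of the 1250 other long models, whose counts are lower. Of the 102, 69 were higher in the symbiotic library and 33 lower. Higher were 10.5% of all tested and 26.2% of the other long models, and lower were 7.9% and 9.2%. Over the 155 genes the log2 ratio had a robust standard deviation of 0.156, which was 4.05 times the 0.0385 that counting error gives at their depth. Multi-exon models of other lengths at the same level gave similar values. The interval excluded equality in 60.0% of the 115 under 1000 nt, 59.4% of the 207 of 1000 nt to under 3000 nt and 78.8% of the 52 of at least 10000 nt. Their spread was 3.56, 3.72 and 3.27 times counting error. The intervals do not cover this excess, and without a second library per condition its source was not tested.

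The 3 genes with the highest ratios stood apart from the rest. Model cHydvir-v1B3C1_g11991 (scaffold 14, positions 6425500 to 6432911, plus strand, 4 exons, 5748 nt) had 1402 counts (251 CPM) in the aposymbiotic and 2516 counts (368 CPM) in the symbiotic library. Its log2 ratio of 0.55 (0.46 to 0.65) was the highest of the 155. Model cHydvir-v1B3C1_g6189 (scaffold 10, positions 16696430 to 16714821, plus strand, 28 exons, 7955 nt) had 1410 counts (252 CPM) and 2508 counts (367 CPM), a log2 ratio of 0.54 (0.44 to 0.63). A gene of 10 exons on scaffold 2 (at 6532933 to 6539442, minus strand, 4857 nt) had 328 CPM and 471 CPM and a log2 ratio of 0.52 (0.44 to 0.60). All 3 have an exon of more than 2000 nt, the longest being of 2603, 3159 and 2767 nt.

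The next 2 genes in this order were among the most abundant of the group. A gene of 50 exons on scaffold 12 (at 3913234 to 3949783, minus strand, 9672 nt), the second longest of the group, had 16818 and 27021 counts. These are 3011 CPM in aposymbiotic and 3950 CPM in symbiotic polyps, a log2 ratio of 0.39 (0.36 to 0.42). A gene of 22 exons on scaffold 7 (at 1359328 to 1368556, minus strand, 5844 nt) had 16163 and 25874 counts, or 2893 and 3782 CPM and a log2 ratio of 0.39 (0.36 to 0.42). Another gene of this level, with 32 exons on scaffold 7 (at 14351650 to 14393982, minus strand, 8160 nt), had 3147 and 3857 CPM and a log2 ratio of 0.29 (0.27 to 0.32), just under the size for a call. The counting error of these 3 is small, and all 3 were higher in the symbiotic library.

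The other 3 genes called higher were spread over 3 scaffolds. A gene of 4 exons on scaffold 3 (at 9767086 to 9778363, plus strand, 8247 nt) had 489 CPM in aposymbiotic and 635 CPM in symbiotic polyps, a log2 ratio of 0.38 (0.31 to 0.45). A gene of 15 exons on scaffold 8 (at 8473823 to 8486181, minus strand, 3100 nt) had 772 CPM and 968.5 CPM and a log2 ratio of 0.33 (0.27 to 0.38). A gene of 23 exons on scaffold 9 (at 3243372 to 3264705, plus strand, 7549 nt) had 334 and 418 CPM and a log2 ratio of 0.33 (0.24 to 0.41). With total counts as the scale, the last 2 fall short of the size for a call, at 0.30 each. The ninth in this order, a 14-exon gene on scaffold 3 (at 12467690 to 12474508), stood at 426 and 524 CPM and 0.30 (0.22 to 0.37), and the 32-exon gene on scaffold 7 followed it as the last of the 10 highest.

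At the other end, the 2 genes called lower differ in structure. Model cHydvir-v1B3C1_g10742 (scaffold 13, positions 6532245 to 6576947, plus strand, 22 exons, 3628 nt) had 3339 counts (598 CPM) in the aposymbiotic and 2919 counts (427 CPM) in the symbiotic library. Its log2 ratio was -0.49 (-0.56 to -0.41), the lowest of the 155, and introns make up 91.9% of its span. Model cHydvir-v1B3C1_g6273 (scaffold 10, positions 17385880 to 17393471, minus strand, 6 exons, 3555 nt) had 345 and 272.5 CPM and a log2 ratio of -0.34 (-0.43 to -0.25), and its longest exon is of 2894 nt.

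The other 8 of the 10 lowest ratios were not called. A gene of 21 exons on scaffold 1 (at 14881715 to 14891877, minus strand, 3456 nt) had 6889 and 6760 counts, or 1233 CPM in aposymbiotic and 988 CPM in symbiotic polyps, a log2 ratio of -0.32 (-0.37 to -0.27). It is just short of the size for a call here, and with total counts as the scale its log2 ratio, -0.35, is past it. A gene of 24 exons on scaffold 5 (at 3681573 to 3693451) had 766 and 624 CPM and -0.29 (-0.36 to -0.23). A gene of 46 exons on scaffold 8 (at 12460453 to 12496487) had 688 and 570 CPM and -0.27 (-0.33 to -0.21). The remaining 5, on scaffolds 16, 9, 13, 1 and 2, ran from -0.23 to -0.17. Among these the gene on scaffold 9 (at 15999277 to 16017861, 28 exons) was the most abundant, at 1541 and 1329 CPM.

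Levels between genes are given per kilobase (kb) of coding length, since CPM grows with length. The median of the 155 genes was 94.4 CPM per kb, and they ran from 33.6 to 1891 CPM per kb. At least 100 CPM per kb was reached by 70 genes, 200 by 22 and 500 by 4. The limit of 300 CPM equals 100 CPM per kb for a gene of 3000 nt and 30.003 CPM per kb for one at the upper end of the length range, so longer genes entered at lower levels per kb. In these genes Spearman's rho between coding length and CPM per kb was -0.559 over 155 genes, and the limit itself falls with length in the same direction. Among the 12023 tested multi-exon models, the median of the 155 stood at the 91.5th percentile of CPM per kb and the lowest at the 71.7th. Of the other tested multi-exon models, 939 had more CPM per kb than that median.

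**Figure D2:**
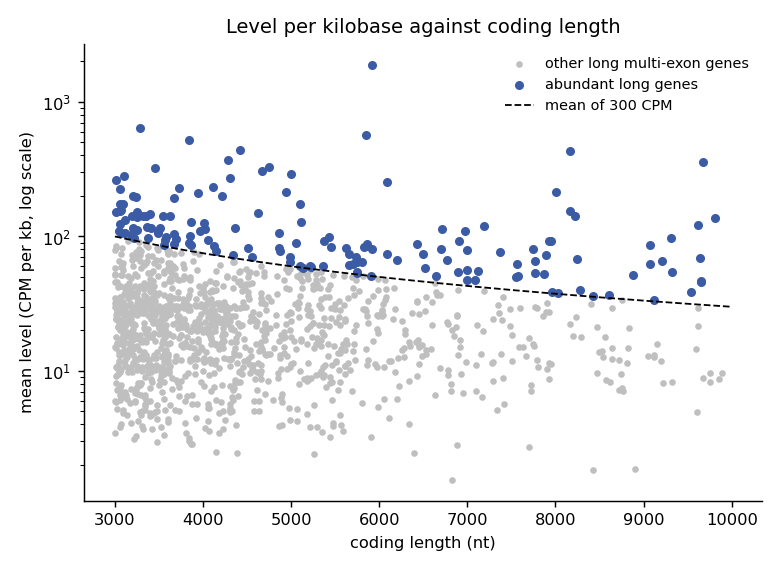
Mean level per kb of coding length (y axis, log scale) against coding length (x axis, nt) for the 155 abundant long genes and the 1250 other multi-exon models of the same length range; the dashed curve is a mean of 300 CPM. The curve falls from 100 to 30.003 CPM per kb, and a single gene, at 1891 CPM per kb, lies far above all the others.

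The most abundant gene per kb was also the largest by counts. This gene of 33 exons on scaffold 12 (at 11363756 to 11377184, plus strand, 5916 nt) had 1781 CPM per kb in aposymbiotic and 2000 CPM per kb in symbiotic polyps. In total these are 10535 and 11833 CPM and a log2 ratio of 0.17 (0.15 to 0.18). It took 1.06% and 1.17% of all counted read pairs. The table lists 63 exon lines for it, which merge to 33 separate exons.

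The second gene per kb stood far below it. This 21-exon gene on scaffold 11 (at 14039523 to 14047280, minus strand, 3279 nt) had 642 CPM per kb in aposymbiotic and 631 CPM per kb in symbiotic polyps, a log2 ratio of -0.03 (-0.06 to 0.01). The 22-exon gene on scaffold 7 given above came next, with 495 and 647 CPM per kb, so it lay below the second in the aposymbiotic and above it in the symbiotic library. A gene of 16 exons on scaffold 9 (at 13712166 to 13718323, plus strand, 3837 nt) had 499 and 543 CPM per kb, and a 20-exon gene on scaffold 6 (at 4777677 to 4786367, plus strand, 4425 nt) had 436 and 444. The log2 ratios of the last 2 were 0.12 (0.08 to 0.16) and 0.03 (-0.01 to 0.06).

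The others of the 10 highest per kb had between 286 and 473 CPM per kb in each library. They are the 32-exon gene on scaffold 7, the 50-exon gene on scaffold 12 and the 21-exon gene on scaffold 1 given above, and 2 more. A gene of 13 exons on scaffold 6 (at 11378255 to 11384788, plus strand, 4286 nt) had 361 and 381 CPM per kb, a log2 ratio of 0.08 (0.04 to 0.12). A gene of 49 exons on scaffold 2 (at 7401847 to 7435073, minus strand, 4746 nt) had 341 and 319 CPM per kb, a log2 ratio of -0.10 (-0.14 to -0.06).

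The genes were built of many small exons. The 155 had a median of 28 exons (quartiles 19 and 37), with 4 to 63 exons each. Although the rule admitted genes of 2 or 3 exons, 0 of the 155 had so few. The length range holds 110 such models, with a median level of 24.0 CPM and a highest of 292 CPM, just under the limit. Among the 1250 other long models the median was 21 exons (quartiles 11 and 31). The 155 are also longer, with a median coding length of 5112 nt against 4011 nt, and per kb the medians were closer, at 5.32 and 4.97 exons. At least 30 exons were found in 71 of the 155 genes (45.8%) and in 345 of the 1250 others (27.6%). This contrast depended on length. Under 4000 nt the shares were 10.0% of the group and 17.0% of the others. From 4000 nt to under 6000 nt they were 45.1% and 33.0%, and in longer genes 79.6% and 51.8%.

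A single exon made up more than 50% of the coding length in 12 of the 155 genes (7.74%) and in 256 of the 1250 others (20.5%). The median longest exon was 663 nt and 896 nt. The median span on the scaffold was 19750 bp (quartiles 11903 and 29299 bp), and introns took a median of 73.5% of it, beside 16614 bp and 74.7% in the others. Under 4000 nt of coding length the median span was 11972.5 bp in the group and 14574 bp in the others. From 4000 nt to under 6000 nt it was 18585 and 18058 bp, and in longer genes 29814.5 and 25380 bp. Within a gene the median intron was 197 bp and the longest 3132 bp (medians over genes). More exon lines than merged exons, taken as more than 1 transcript, were listed for 69 of the 155 models (44.5%) and for 322 of the others (25.8%). In the abundant multi-exon genes of other lengths this share was 10.4% under 1000 nt, 26.6% from 1000 nt to under 3000 nt and 46.2% from 10000 nt. Exon boundaries differed between lines in 27.1% of the 155 and 19.6% of the others. Exon numbers and lengths are those of merged exons, so the 2 sets may be affected unequally. None of these structural differences was tested.

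The extremes of structure had ratios on both sides of equality. The gene with most exons, 63 on scaffold 4 (at 8169258 to 8261421, plus strand, 9543 nt, span 92164 bp), had 382 CPM in aposymbiotic and 354 CPM in symbiotic polyps, a log2 ratio of -0.11 (-0.20 to -0.03). The next were a 62-exon gene on scaffold 9 (at 8273266 to 8303510) at 555 and 534 CPM and a 59-exon gene on scaffold 1 (at 9075139 to 9104522), the longest of the group at 9816 nt, at 1263 and 1452 CPM. Their log2 ratios were -0.06 (-0.13 to 0.01) and 0.20 (0.16 to 0.25). The widest gene spans 144688 bp on scaffold 8 (at 13396813 to 13541500, minus strand, 32 exons) for a coding length of 4508 nt, so introns take 96.9% of it. It had 343 and 402 CPM and a log2 ratio of 0.23 (0.14 to 0.31). The longest single exon, of 7132 nt, belongs to the 4-exon gene on scaffold 3 given above, which was called higher at a log2 ratio of 0.38. The second, of 6472 nt, belongs to a 23-exon gene on scaffold 8 (at 13275282 to 13296512) at 1095 and 1242 CPM.

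The ratio varied with intron share inside the group. With exon number, Spearman's rho of the log2 ratio was only -0.04, beside -0.15 in the 1250 others. The 19 genes with introns on less than 50% of their span had a median log2 ratio of 0.19, the 26 with 50 to 65% one of 0.13, the 46 with 65 to 75% one of 0.01 and the 64 with at least 75% one of 0.00. The order-statistic intervals of the first and last of these medians were 0.04 to 0.29 and -0.05 to 0.06, so they overlapped. In the 1250 other long genes, which the rule did not choose, the same classes had medians of 0.15, 0.09, 0.06 and 0.04. Called higher were 4 of the 19 genes (21.1%), beside 24.4% of the 213 others with so few introns. With introns on at least 75%, 0 of the 64 genes were called higher, beside 3.44% of the 611 others. These shares of the 155 are near those of the others. Spearman's rho between intron share and log2 ratio was -0.299 over the 155 genes and -0.183 over the 1250 others. It is a description across genes, which share both libraries. The classes were not matched for length, exon size or level, and base composition was not analysed here.

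**Figure D3:**
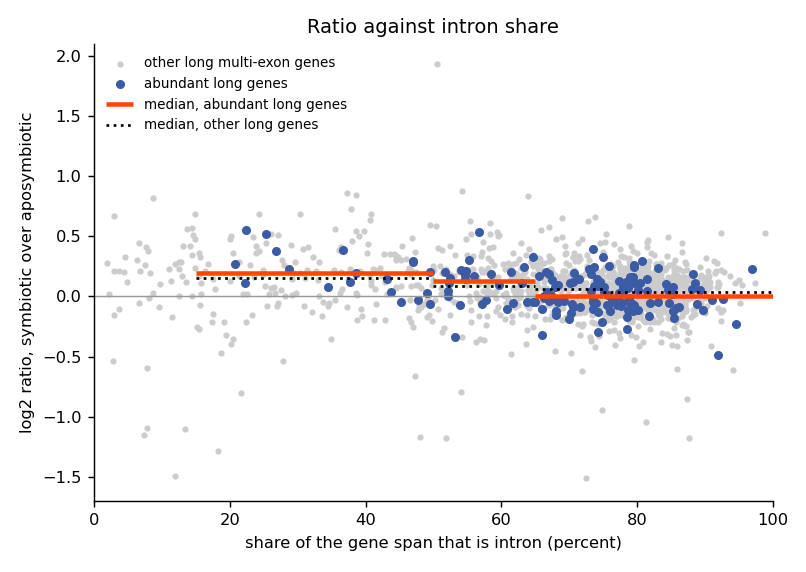
Log2 ratio of CPM, symbiotic over aposymbiotic, (y axis) against the share of the gene span that is intron (x axis, percent), for the 155 abundant long genes and the 1250 other long multi-exon genes; horizontal lines are medians in 4 classes of intron share. The medians of the abundant long genes step down from 0.19 to 0.00 as the intron share grows, and those of the others from 0.15 to 0.04, within a much wider spread of single genes.

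By the longest exon, the median was highest in the class of the largest exons, and in the other 3 classes it did not rise with exon size. The 22 genes with an exon over 2000 nt had a median log2 ratio of 0.15. Of these 5 were called higher (22.7%) and 1 lower (4.55%), beside 24.3% and 6.62% of the 272 others with such an exon. The 24 genes with a longest exon over 1000 and up to 2000 nt had a median of 0.01, the 57 with one over 500 and up to 1000 nt had 0.04 and the 52 with none over 500 nt had 0.04. In the 1250 others the medians from the largest to the smallest class were 0.13, 0.07, 0.04 and 0.03. Spearman's rho between longest exon and log2 ratio was 0.189 in the 155 and 0.158 in the others. By class of coding length, no order appeared within the group: the median was 0.00 for the 50 genes under 4000 nt, 0.09 for the 51 of 4000 nt to under 6000 nt and 0.04 for the 54 longer ones. Spearman's rho with the log2 ratio was 0.143 for coding length and 0.02 for mean CPM.

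Set beside multi-exon genes of other lengths chosen by the same limits on level and ratio, the 155 lay in the middle. The median log2 ratio was -0.03 for the 115 abundant genes under 1000 nt, 0.01 for the 207 of 1000 nt to under 3000 nt, 0.05 for the 155 and 0.12 for the 52 of at least 10000 nt. Above equality lay 40.0%, 52.2%, 58.1% and 88.5% of them. The order-statistic intervals of these medians were -0.05 to -0.00086, -0.02 to 0.03, -0.0045 to 0.08 and 0.07 to 0.16. That of the 155 overlapped those of both neighbouring length classes, while those of the shortest and the longest class stood apart. The differences were not tested.

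Several genes have many exons of the same length, next to each other or apart. The same length occurred in at least 6 internal exons in 12 of the 155 genes (7.74%) and in 32 of the 1250 others (2.56%). A gene with more exons can reach this number more easily, and the sets were not matched for exon number (medians 28 and 21). Of all 4191 internal exons of the 155 genes, 49.0% had a length that is a multiple of 3, against 43.2% in the others. In the abundant multi-exon genes of other lengths it was 46.5% under 1000 nt, 44.4% from 1000 nt to under 3000 nt and 50.3% from 10000 nt. Among genes with at least 10 internal exons, 20 of 140 (14.3%) had such lengths in at least 70% of them, against 62 of 934 (6.64%) of the others. In the abundant genes of 1000 nt to under 3000 nt these were 9 of 84 (10.7%), and in those of at least 10000 nt 8 of 48 (16.7%). The genes named in this and the next paragraphs for their exon series were chosen after their values were seen.

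The largest gene is one of them. From its exon 7 to its exon 25, counted from the 5′ end, lengths of 174, 186 and 174 nt recur in order, a unit of 3 exons, and in all 13 of its exons are of 174 nt. Of its 31 internal exons 29 are multiples of 3. A second gene of the group lies 154575 bp away on the opposite strand of scaffold 12 (11531760 to 11571303, minus strand, 37 exons), with 15 models between them. It ends in the same 9 exon lengths in the same order, which are 174, 177, 177, 186, 171, 168, 89, 178 and 47 nt. Directly before and into this ending, from its exon 25, it has the run of 183, 603, 180, 165 and 174 nt that stands from exon 3 of the largest gene. The 174 nt exon of that run is also the first of the 9 end exons, so it is counted in both matches. The repeated exon of the second gene is of 138 nt, 18 times. No other of the 155 genes ends in more than 1 exon length of the largest gene.

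Similar exon series did not go with similar levels in this pair. The nearby gene had 698 CPM in aposymbiotic and 822 CPM in symbiotic polyps, a log2 ratio of 0.24 (0.18 to 0.30), beside 10535 and 11833 CPM and 0.17 (0.15 to 0.18) in the largest gene. Neither reached the size for a call, and their intervals overlap at the edge.

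The longest run of 1 exon length was in a 55-exon gene on scaffold 8 (at 10004761 to 10042902, minus strand, 9321 nt). In it 42 exons are of 171 nt, 17 of them in an unbroken run from exon 14 to exon 30. It had 523 CPM in aposymbiotic and 498 CPM in symbiotic polyps, a log2 ratio of -0.07 (-0.14 to -0.00028). In the 49-exon gene on scaffold 2 given above, exons of 34, 164 and 84 nt alternate from exon 25 to exon 44. Of its 47 internal exons only 18 are multiples of 3, while the 3 lengths of a unit together are. A gene of 15 exons on scaffold 9 (at 13343502 to 13356724, plus strand, 4623 nt) places exons of 489 nt, 6 in all, in pairs between exons of 36 or 39 nt, and had 698 and 674 CPM and a log2 ratio of -0.05 (-0.11 to 0.01).

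**Figure D4:**
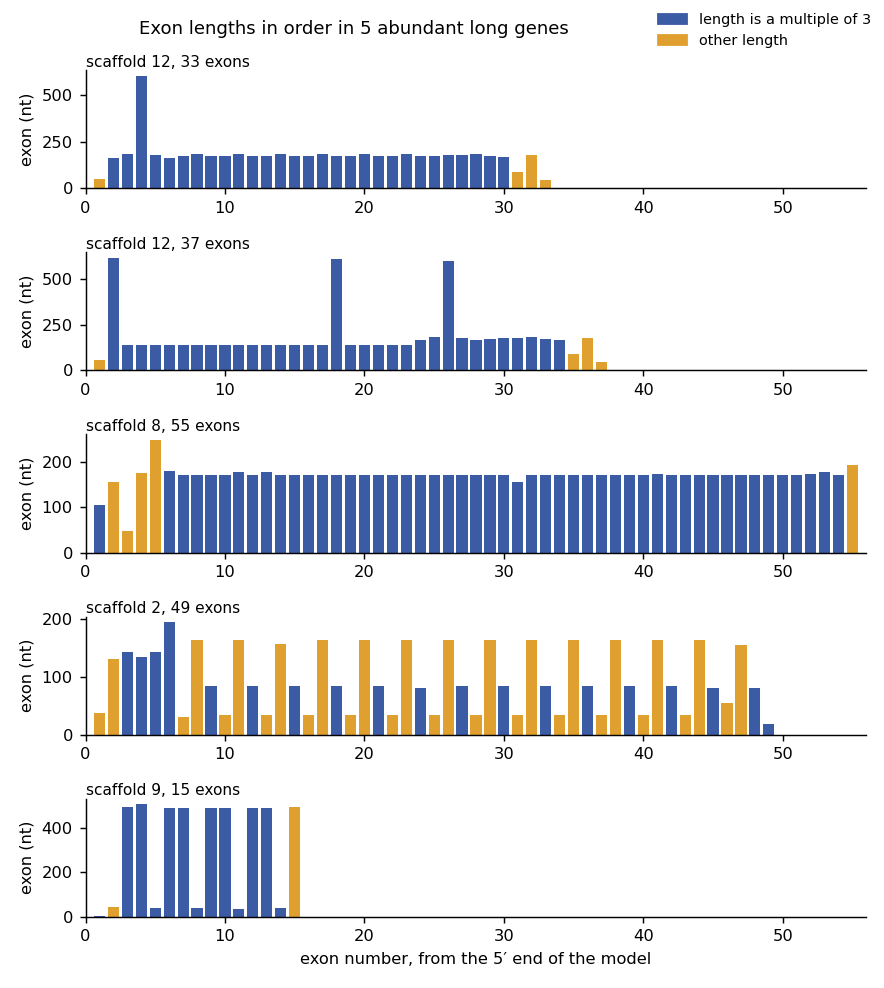
Length of each exon (y axis, nt) in order from the 5′ end (x axis) in 5 of the abundant long genes, from top to bottom the largest gene, the nearby gene on scaffold 12, and genes on scaffolds 8, 2 and 9; blue bars are multiples of 3. The exons of 171 nt (42) and 138 nt (18) show as stretches of equal bars. In the largest gene the exons of 174 nt (13) alternate with exons of 186 nt, and the gene on scaffold 2 alternates exons of 34, 164 and 84 nt.

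Other genes with a repeated exon length showed ratios on both sides of equality. A gene of 23 exons on scaffold 6 (at 11264172 to 11273077, minus strand) with 6 exons of 54 nt had 1089 and 1253 CPM and a log2 ratio of 0.20 (0.16 to 0.25). A gene of 35 exons on scaffold 6 (at 7914011 to 7937790) with 8 exons of 54 nt had 377 and 408 CPM and a log2 ratio of 0.11 (0.03 to 0.20). A gene of 36 exons on scaffold 2 (at 3653240 to 3686808) with 6 exons of 174 nt had 911 and 810 CPM and a log2 ratio of -0.17 (-0.23 to -0.12). In the 20 genes with at least 70% of internal exons in multiples of 3, the median log2 ratio was 0.10 (quartiles -0.06 and 0.17).

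Of the 155 genes, 12 have at least 1 look-alike elsewhere, here a model of at least 4 exons that shares at least 80% of its exon lengths. These form 7 pairs, 5 with both models in the group. Read pairs that align to more than 1 place were not counted, so reads that fit both copies are missing from these genes and their levels are uncertain. How many reads this concerns was not tested.

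In the 2 most alike pairs within the group, all exon lengths are the same in the same order. Genes of 30 exons and 5856 nt lie on scaffold 14 (at 4438023 to 4449072) and scaffold 15 (5728943 to 5740001), both on the plus strand. The first had 447 CPM in aposymbiotic and 548 CPM in symbiotic polyps, and the second 463 and 566 CPM. Their log2 ratios, 0.29 (0.22 to 0.37) and 0.29 (0.22 to 0.36), differed by far less than counting error. On scaffold 16, genes of 49 exons and 9072 nt lie at 1959738 to 1978673 on the plus strand and at 5117138 to 5136138 on the minus strand. The first had 773 and 797 CPM and the second 544 and 588 CPM, so the level differed between the copies while the ratios, 0.04 (-0.01 to 0.10) and 0.11 (0.04 to 0.18), overlapped.

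In the other 3 pairs within the group the ratios also overlapped. On scaffold 16, an 18-exon gene (2167511 to 2174539) and a 17-exon gene (4940625 to 4947447) had log2 ratios of -0.04 (-0.13 to 0.04) and 0.04 (-0.05 to 0.12). Genes of 32 exons on scaffold 16 (at 9161461 to 9187001) and scaffold 18 (506204 to 528931) had 0.11 (0.03 to 0.20) and 0.09 (0.0023 to 0.18). On scaffold 6, a 50-exon gene (9795772 to 9835423) and a 49-exon gene (10785232 to 10823991) had 0.01 (-0.07 to 0.09) and 0.04 (-0.04 to 0.11).

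For 2 genes the look-alike fell below the limit of level. The 23-exon gene on scaffold 16 (at 1945356 to 1956868) had 297 CPM in aposymbiotic and 328 CPM in symbiotic polyps, and its copy (5139025 to 5150859) had 279 and 311 CPM. Their log2 ratios were 0.14 (0.05 to 0.24) and 0.16 (0.06 to 0.25). The 28-exon gene on scaffold 10 (at 4930363 to 4954820) had 293 and 318 CPM and a log2 ratio of 0.12 (0.02 to 0.21). Its look-alike on scaffold 15 (at 9045228 to 9065725) had 125 and 172 CPM and 0.45 (0.32 to 0.59), and this was the only one of the 7 pairs whose intervals did not overlap.

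**Figure D5:**
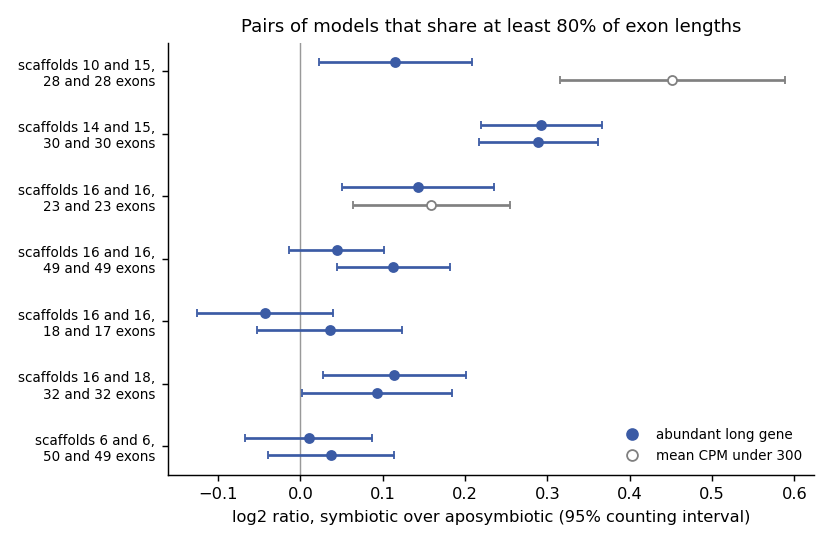
Log2 ratio of CPM, symbiotic over aposymbiotic, (x axis) with its 95% counting interval for both models of 7 look-alike pairs, 1 pair per row; filled points are abundant long genes and open points models under a mean of 300 CPM. In 6 pairs the intervals overlap, and in the pair on scaffolds 10 and 15 they stand apart, at 0.12 and 0.45.

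The 155 genes lay on 17 of 105 scaffolds, 69 on the plus and 86 on the minus strand. Scaffold 2 held most, 24 of its 187 multi-exon models of this length (12.8%). The share was highest on scaffold 16, with 7 of 36 (19.4%), whereas scaffold 15 had 1 of 48 (2.08%) and scaffold 17 had 0 of 13. Over the whole length range it was 10.3%. Of the 7 on scaffold 16, 6 belong to the look-alike pairs above.

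Next to each other lay 4 pairs of the genes. On scaffold 1, a 23-exon gene (5096154 to 5117562, plus strand) and a 52-exon gene (5118866 to 5177378, minus strand) stand 1303 bp apart. The first had 435 CPM in aposymbiotic and 385 CPM in symbiotic polyps, a log2 ratio of -0.18 (-0.26 to -0.10). The second had 306 and 324 CPM and 0.08 (-0.01 to 0.17), so the intervals did not overlap. On scaffold 5, a 10-exon gene (13794112 to 13802161) at 0.22 (0.13 to 0.30) and a 47-exon gene (13806047 to 13841654) at -0.11 (-0.19 to -0.03) differed likewise. The pairs on scaffold 6 (at 882869 to 897271 and 899821 to 916469) and scaffold 16 (1945356 to 1956868 and 1959738 to 1978673) had overlapping intervals. Models on the opposite strand overlapped 6 of the 155 in their spans. Counting was over exons and did not use strand, so strand could not separate reads where exons of both models overlap. Whether their exons overlap was not examined.

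Genes just inside and outside the limits show how sharp the rule is, on the CPM of unscaled totals that it uses. At the limit of level, a 20-exon gene on scaffold 3 (at 20393330 to 20413243) entered at a mean of 301 CPM, and a 16-exon gene on scaffold 1 (at 12403624 to 12414752) stayed out at 299.95 CPM. At the lower limit of length, a gene of 3012 nt on scaffold 7 (at 10709162 to 10720619) entered and one of 2994 nt on scaffold 1 (at 15648311 to 15662817) did not. At the upper limit these were the gene of 9816 nt given above and one of 10077 nt on scaffold 1 (at 30003659 to 30039761). A single-exon model on scaffold 13 (at 9818906 to 9824161, 5256 nt) at a mean of 314 CPM was the 1 model that only the limit on exons kept out.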

How the data were processed

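The authors deposited raw read-pair counts per gene model, made with featureCounts 2.1.1 over exons, without a strand setting and without options for multiply aligned or multiply assigned reads, per the file headers. STAR 2.7.11b, fastp 1.1.0 and deepTools 3.5.6 are listed in the submitters' processing notes. The annotation is a BRAKER3 set, per the file headers. Coordinates are those of the deposited table, whose build the sources used here do not name. The molecule field says polyA RNA whereas the protocol describes total RNA; the protocol was followed. Lengths are multiples of 3 in 98.4% of models and in 87.1% of the 155 genes; the gene models hold no UTRs as a rule, and the text therefore writes coding length. Exons are the listed intervals after merging overlaps.

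Membership used CPM on unscaled totals. All other CPM were computed on totals scaled by TMM (trimmed mean of M values, with factors 1.01 aposymbiotic, 0.991 symbiotic) over all models in edgeR 4.0.16 (R 4.3.3). Log2 ratios have a prior count of 0.5 and exact 95% Clopper-Pearson intervals conditional on the sum of both counts, which cover counting error only. A difference was called at a log2 ratio of 0.32 or more in size with an interval excluding equality. With 1 library per condition no test was run. No list of cell type markers was formed, since the identifiers carry no names. The procedure was checked on simulated counts that held only set differences and counting error. That check does not cover the wider spread between these libraries. The members and lists were chosen with earlier results of these data known. Genes named singly are the 10 with the highest level per kb, the 10 highest and 10 lowest ratios, the extremes of structure (up to 5 each) and those at the limits of the rule; of these, ranges stand for some. Identifiers are printed for 2 genes in each direction. Tables were handled in pandas 2.3.3, intervals computed in scipy 1.17.1 and figures drawn in matplotlib 3.10.9, under Python 3.11.15. The alternatives were other scalings, a prior count of 5, other limits of the rule and other fold sizes and intervals.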

Additional observations from a re-analysis of the deposited data

How the results depend on the processing

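No paired analysis was possible because each condition has 1 library. Of 72 alternative values of the group's summaries, 48 stayed within their error or, for counts, within 1.5 times, and 24 did not. Some of the 48 could not differ. The limit on the ratio removed 0 genes, so dropping it changed nothing, and the set taken by CPM per kb was given the same number of genes. With scaling by total counts, by RLE, by the upper quartile or by totals that leave out the 100 largest genes, or with a prior count of 5, the median log2 ratio ran from 0.02 to 0.05, with 6 to 8 genes higher and 2 or 3 lower at the size for a call. With a limit of 200 CPM there were 294 genes, 16 higher and 4 lower, 14.02% of the aposymbiotic and 14.5% of the symbiotic counts and 66.4 CPM per kb. With 500 CPM there were 63 genes, 4 higher and 1 lower, 7.15% and 7.53% of the counts and 148 CPM per kb. Single-exon models included, the shares were 10.7% (10.68%) and 11.1% (11.12%). The same number taken by CPM per kb shared 118 genes and had 10.3% and 10.7% of the counts, a median of 24 exons and a span of 16825 bp, since longer genes then need a higher CPM. At 1.1-fold 45 genes were higher and 13 lower (9.94% and 7.24% of all tested models), and at 1.5-fold 0 and 0 (2.3% and 2.78%). Chosen after seeing the data, leaving out the largest gene gave shares of 9.58% and 9.92%, and leaving out the 12 genes with a look-alike left 8 higher and 2 lower. Of the 155 single ratios, scaling by total counts, by the upper quartile and by totals leaving out the 100 largest changed the sign of 7, 4 and 5, in each case of genes whose interval held equality. At the depth of these genes the counting standard deviation of a log2 ratio was 0.0385, and the spread between replicates is not measured.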

Other observations

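Look-alike models of at least 8 exons were arranged in order over long stretches, which the genes above touch in a few places. On scaffold 16, 17 pairs of models on opposite strands lay in strictly reversed order. The first copies start between 31884 and 2841797 and the second copies between 4270381 and 6548342, and in 13 of the 17 pairs all exon lengths are shared. Of these pairs, 3 hold an abundant long gene. Scaffolds 14 and 15 share 83 pairs, all 83 on the same strand, and Spearman's rho of their positions was 0.9998. Scaffolds 10 and 15 share 67 pairs, 66 on opposite strands, with a rho of -0.98. Scaffolds 4 and 17 share 43 pairs, 39 of them on opposite strands, with a rho of -0.9996, and none of these holds an abundant long gene. Scaffolds 16 and 18 share 25 pairs, 24 on opposite strands, with a rho of -0.9996. Models were matched by exon lengths alone, without their sequence, and whether these stretches are copies in the genome or in its assembly was not tested.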
